A study of Mus musculus with 24 samples.

Results

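Livers of mice with a liver-specific loss of E2f7 and E2f8 (LKO) were followed through an acetaminophen (APAP) overdose, and the genes were sought whose RNA stayed up or stayed down at every time from 12 to 72 h. This uses 8 of the 24 liver libraries of the series. They are 4 untreated LKO mice at 0 h, with 1 library per mouse, and 4 LKO pools, with 1 library each at 12, 24, 48 and 72 h after 300 mg/kg APAP, given intraperitoneally. Each pool holds RNA of 3 mice. All mice were males aged 2.5 months that had been fasted for about 16 h, on a mixed background that is mostly FVB. Every mouse of both genotypes carried loxP-flanked alleles of E2f7 and E2f8 and the R26R mTmG reporter, and LKO mice also carried 1 copy of the Alb-Cre transgene. Alb-Cre acts in cells of the albumin-expressing liver lineage during development, so the deletion is lifelong and is not aimed at blood-derived, stellate or endothelial cells. Control mice were littermates without Cre, labelled WT, and were sampled in the same way, with 4 mice at 0 h and 1 pool per time.

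E2f7 and E2f8 are atypical members of the E2F family that repress genes of the cell cycle, and livers without them hold fewer polyploid hepatocytes. APAP is oxidised by cytochrome P450 enzymes around the central vein to a reactive quinone imine. This metabolite is neutralised by glutathione and, once glutathione is spent, binds proteins and kills pericentral hepatocytes. Surviving hepatocytes switch on antioxidant and amino acid supply genes, blood monocytes enter the dead zones and become macrophages, and hepatocytes divide to refill the tissue. The comparison made here asks which RNA changes lasted through all of these stages in LKO livers.

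The 4 LKO mice at 0 h had 13671993 to 19046197 reads on genes (median 17256516.5) and the 4 pools had 16389062 to 19499897. Levels are given as CPM, the reads of a gene scaled to the library's reads on genes and its TMM factor, and 3 counts, taken as the lowest detectable level, equal 0.143 to 0.209 CPM. This limit covers counting error only. The 12 h pool stood apart from the other LKO libraries on the first principal component, at −62.5 against −24.8 to 26.2 for the rest. The whole-gene level of E2f8 was 22.3, 26.7, 34.4 and 17.8 CPM in the 4 mice and 47.6, 14.7, 21.5 and 16.6 CPM in the pools at 12, 24, 48 and 72 h (log2 fold change −0.01, SE 0.37, adjusted p = 0.991 by edgeR). E2f7 had 3, 3, 4 and 4 reads in the mice and 13, 5, 26 and 40 reads in the pools, too few to be tested. In control livers E2f8 was at 18.9, 18.3, 16.5 and 11.7 CPM in the mice and 14.2, 4.19, 4.91 and 7.80 CPM in the pools, with 0 h means of 25.3 ± 7.10 (SD, n = 4) in LKO and 16.3 ± 3.26 (SD, n = 4) in control (difference in the change after APAP 1.06, SE 0.32, adjusted p = 0.257 by edgeR). The study looked at single exons of E2f8 to check deletion in another model, in which a virus brought Cre to adult hepatocytes. It reports no such exon check for LKO livers, and counts per exon were not analysed here. Whole-gene counts can include transcripts that lack the deleted exons, so neither gene checks the genotype. Hepatocyte marker genes such as albumin summed to 59380 to 100800 CPM at 0 h and 81220 to 115300 CPM in the pools.

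Over 12 to 72 h, 22 genes were held away from their 0 h level in LKO livers, 13 of them up and 9 down. The largest increases were in Slc7a11, which imports cystine for glutathione, in the macrophage genes Mmp12, F13a1 and Chil3, in the serine synthesis gene Psat1, and in the lipoprotein gene Apoa4. The largest decrease was in Slc1a2, a glutamate transporter of the hepatocytes next to the central vein. Calls needed a fold change of at least 1.5 and an adjusted p below 0.05 in edgeR's quasi-likelihood test, with Benjamini-Hochberg adjustment over 12674 genes. A called gene was held if, in addition, each of the 4 pools lay beyond all 4 mice. Each pool also had to lie at least 1.5-fold from the 0 h mean in the same direction, with 0.5 CPM added to both. This rule keeps pools and mice apart in every held gene, so a lack of overlap in such a gene is no further result. Of the genes tested, 13 were called higher (0.103%) and 9 lower (0.0710%), or 22 in all (0.174%), 1907 had an unadjusted p-value under 0.05, and all 22 called genes were also held. The 4 pools differ in time and are treated as libraries of 1 condition, so the spread in this test includes the change between 12 and 72 h. APAP, time since the fast, time of day and pooling cannot be told apart in this comparison.

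Which genes passed the test depended on single libraries. Without the 12 h pool 324 genes were called higher and 211 lower, and without the 72 h pool 59 and 39. Without the 24 h pool these counts were 3 and 0, when 1480 had an unadjusted p below 0.05, and without the 48 h pool 6 and 2. Leaving out mouse 1, 2, 3 or 4 at 0 h gave 5, 4, 1 and 1 genes called higher and 3, 2, 0 and 0 called lower, and 1684, 1438, 1502 and 1354 genes had an unadjusted p below 0.05. DESeq2 called 315 genes higher (2.49%) and 199 lower (1.57%), the 22 genes included. In simulated counts with edgeR's estimate of the spread, 31 of 153 DESeq2 calls and 2 of 95 edgeR calls were false. EdgeR found 17% of the simulated 2-fold changes and DESeq2 39%. The simulated pools did not differ by time, so they cannot tell which tool is nearer the truth in these data. None of the 22 changed direction under any alternative that was run.

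**Figure D1:**
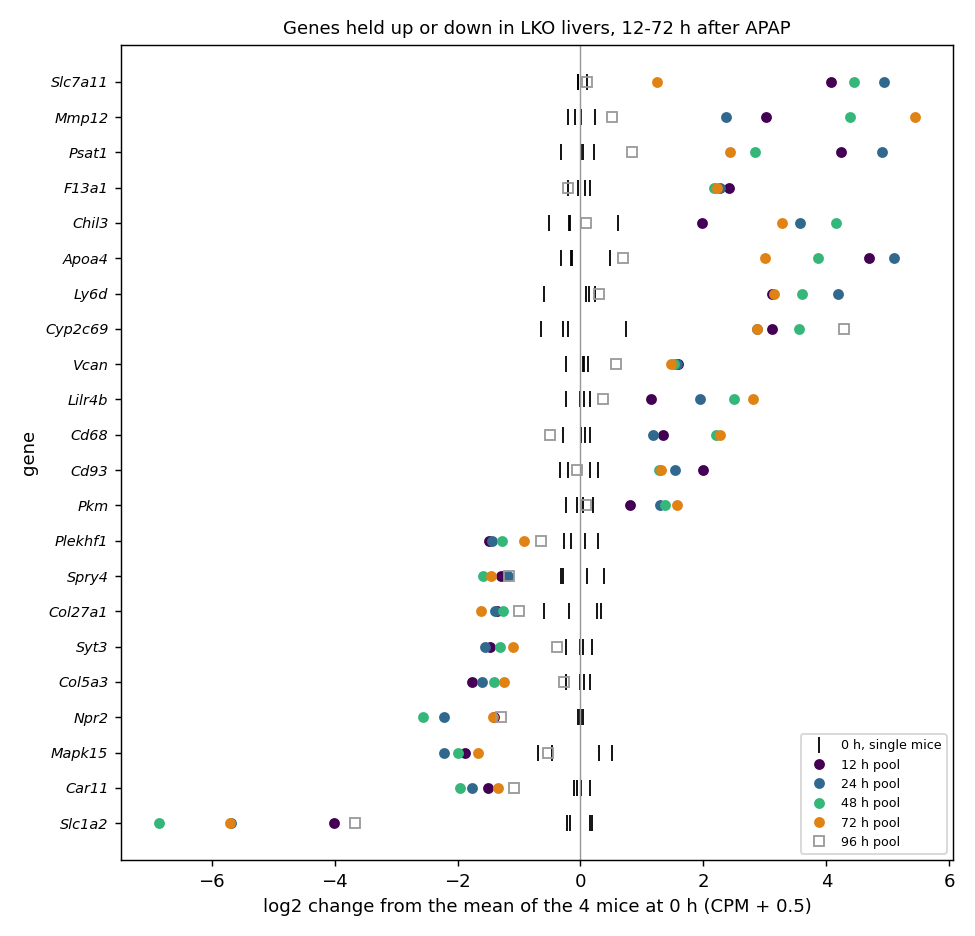
Log2 change from the mean of the 4 mice at 0 h (CPM plus 0.5) for the 22 held genes, 1 row per gene, in LKO livers. Bars mark single mice at 0 h, filled points the pools at 12, 24, 48 and 72 h, and open squares the pool at 96 h. All filled points lie beyond all bars of their row, which the rule for held genes requires. The open square lies within the bars for 5 of the 13 genes that were up and 1 of the 9 that were down.

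Slc7a11 encodes the light chain of the cystine/glutamate exchanger, which supplies cysteine for glutathione. It had 1 read in total in the 4 mice, at 0.0552 CPM in mouse 2 and 0 CPM in the other mice. The pools had 8.13, 15.2, 10.8 and 0.713 CPM at 12, 24, 48 and 72 h. Every pool lay above every mouse, but the 72 h pool was far below the other pools. In reads, 634 in the pools against 1 in the mice is a ratio of 578 after scaling, with a counting interval (95%) of 103 to 22880. The fitted log2 fold change of 8.65 (SE 1.25, adjusted p = 0.0241 by edgeR) depends on this single read. At 96 h the level was 0.0542 CPM, again at the 0 h level.

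The 250 bases before the RefSeq start of Slc7a11 on GRCm38.p6 are shown because they hold, as a palindromic pair, matches to TGATGNAA, the amino acid response element to which ATF4 binds. These matches begin 66 and 47 bases before the start, on opposite strands. Capitals mark them and, in order from the left, matches to NF-Y (CCAAT), STAT (TTCNNNGAA) and E2F (TTGGCGC) that begin 216, 183 and 102 bases before the start, with both strands read. The gene lies on the minus strand of chromosome 3 (49892526 to 50443614), and the sequence runs 5′ to 3′ along the gene.
Slc7a11, chr3:50443614-50443863, minus strand: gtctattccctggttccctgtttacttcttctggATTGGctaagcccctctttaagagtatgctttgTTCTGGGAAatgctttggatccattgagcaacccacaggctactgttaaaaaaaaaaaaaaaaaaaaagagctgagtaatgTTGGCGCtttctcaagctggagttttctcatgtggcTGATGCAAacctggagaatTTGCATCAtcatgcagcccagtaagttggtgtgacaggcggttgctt
TGATGNAA occurs in this window in 3.91% of the 27025 genes with a RefSeq promoter and in 2.48% of the tested genes that have one. It was added to the motifs after Slc7a11 and Psat1 were seen among the held genes, and Psat1 has no match in its windows. Of the held genes with a promoter, Slc7a11 was the 1 of 11 that were up with a match, and Car11 the 1 of 7 that were down. A match is a stretch of letters and does not show that a factor binds.

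Psat1, phosphoserine aminotransferase, makes serine from a glycolytic intermediate. It was at 0.557, 0.331, 0.698 and 0.544 CPM in the mice and at 18.9, 30.4, 6.85 and 5.09 CPM in the pools at 12, 24, 48 and 72 h. The pools did not overlap the mice, and the early pools were the highest (log2 fold change 4.83, SE 0.62, adjusted p = 0.0193 by edgeR). A few further enzymes and transporters of amino acids are given because of their known roles beside Psat1. They were picked after their values were seen, with no list counted. None was called by edgeR, while DESeq2 called Phgdh, Mthfd2, Asns and Slc7a1 higher. In these genes all pools lay above all mice, as for 4.18% of all genes tested. The serine synthesis gene Phgdh was at 0 to 0.272 CPM in the mice and 0.662 to 2.71 CPM in the pools (adjusted p = 0.111). The mitochondrial folate enzyme Mthfd2 was at 1.05 to 1.88 CPM and 2.59 to 6.99 CPM (adjusted p = 0.0974), and asparagine synthetase, Asns, at 0.0544 to 0.696 CPM and 1.05 to 5.44 CPM (adjusted p = 0.139). The arginine transporter gene Slc7a1 was at 0.487 to 0.939 CPM in the mice and 1.71 to 3.79 CPM in the pools (adjusted p = 0.0810). All of these adjusted p-values are from edgeR. Phgdh lay below the level of the filter on low counts, 0.582 CPM, in every mouse. Asns and Slc7a1 did not reach that level in every mouse, so these genes entered the test through the pools. Not every enzyme of the pathway lay higher, since Shmt2, which turns serine into glycine in mitochondria, was at 265 to 312 CPM in the mice and 123 to 250 CPM in the pools (adjusted p = 0.305 by edgeR). The list of ER stress and integrated stress response genes, which holds Asns and other targets of ATF4, had 0 of 20 members called by edgeR, with 1 higher and 2 lower at an unadjusted p-value under 0.05, and DESeq2 called 1 higher and 1 lower. Its median log2 fold change was −0.08, and Chac1 and Trib3, which ATF4 is known to induce, had log2 fold changes of −1.22 and −1.09.

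Apoa4, an apolipoprotein of lipid transport, was the most abundant gene that was held up. It was at 86.3, 150, 97.1 and 98.5 CPM in the mice and at 2792, 3738, 1578 and 867 CPM in the pools at 12, 24, 48 and 72 h. All pools lay well above all mice, with the peak at 24 h and a decline after it (log2 fold change 4.38, SE 0.46, adjusted p = 0.0095 by edgeR). Ly6d, a surface protein of the Ly6 family anchored by a lipid tail, gave the smallest adjusted p-value of all genes. It was at 1.32, 1.38, 0.640 and 1.52 CPM in the mice and at 14.5, 30.7, 20.3 and 14.7 CPM in the pools (log2 fold change 4.03, SE 0.36, adjusted p = 0.0043 by edgeR). Ly6d was called in 15 of the 16 alternatives run, and the 96 h pool, once added, ended the call (adjusted p = 0.126 by edgeR). Pkm, the pyruvate kinase of tissues other than adult liver parenchyma, was at 19.4, 18.1, 15.9 and 21.8 CPM in the mice and at 33.1, 46.8, 49.5 and 56.6 CPM in the pools. Its levels were close together among the mice, and the 12 h pool was the lowest of the pools (log2 fold change 1.31, SE 0.20, adjusted p = 0.0401 by edgeR).

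Cyp2c69, a P450 enzyme with higher expression in female mouse liver, was at 0.348, 1.71, 0.582 and 0.652 CPM in the mice and 11.0, 9.17, 15.1 and 9.18 CPM in the pools. The rise was of similar size at each time (log2 fold change 3.72, SE 0.45, adjusted p = 0.0132 by edgeR) and the 96 h pool was higher still, at 25.3 CPM. Cyp2c69 has a near-identical paralog, Cyp2c40, and only reads that map to 1 place were counted, so its level is uncertain.

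Several of the genes held up are known from macrophages and other myeloid cells. Mmp12, macrophage metalloelastase, was at 0.0696, 0.276, 0.116 and 0.163 CPM in the mice and rose to 4.82, 2.90, 13.2 and 28.2 CPM in the pools at 12, 24, 48 and 72 h (log2 fold change 6.20, SE 0.84, adjusted p = 0.0241 by edgeR). Chil3, a chitinase-like protein secreted by macrophages, was at 0.835, 0.276, 0.116 and 0.272 CPM in the mice and at 2.95, 9.85, 15.2 and 7.94 CPM in the pools (log2 fold change 4.60, SE 0.64, adjusted p = 0.0272 by edgeR). For Mmp12 the pools at 48 and 72 h were the highest, and for Chil3 the 48 h pool was. Cd68, a lysosomal glycoprotein of macrophages, was at 6.40, 4.86, 6.11 and 6.79 CPM in the mice and at 16.1, 14.3, 29.6 and 31.1 CPM in the pools (log2 fold change 1.92, SE 0.29, adjusted p = 0.0401 by edgeR). Lilr4b, a receptor of myeloid cells, was at 1.39, 1.60, 1.105 and 1.47 CPM in the mice and at 3.67, 6.74, 10.1 and 12.8 CPM in the pools (log2 fold change 2.58, SE 0.40, adjusted p = 0.0401 by edgeR). Lilr4b belongs to a family of similar genes, and its level is uncertain for the same reason as that of Cyp2c69. The order of the pools was the order of the times for Lilr4b, while Cd93, a receptor of endothelial and myeloid cells, was highest at 12 h. Cd93 was at 6.61, 4.53, 7.27 and 5.05 CPM in the mice and at 24.9, 17.9, 14.9 and 15.3 CPM in the pools (log2 fold change 1.64, SE 0.25, adjusted p = 0.0401 by edgeR).

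F13a1 and Vcan, whose mean stayed under 5 CPM, were named after their values were seen. F13a1, the A subunit of coagulation factor XIII made by macrophages, had 5 reads in the 4 mice and 170 in the pools, at 2.59, 2.28, 2.09 and 2.19 CPM (log2 fold change 4.82, SE 0.59, adjusted p = 0.0132 by edgeR). Vcan, which encodes the matrix proteoglycan versican, had 6 reads in the mice and 90 in the pools, at 1.26, 1.24, 1.19 and 1.14 CPM (log2 fold change 3.67, SE 0.60, adjusted p = 0.0437 by edgeR). The pools of both genes were nearly level, with the highest 1.24 times the lowest for F13a1 and 1.11 times for Vcan. Slc7a11, Mmp12, F13a1 and Vcan had 0 mice at the level of the filter on low counts, Chil3 had 1, Psat1 2 and Cyp2c69 3. The filter needs 4 libraries at that level, so these genes entered the test through the pools. Slc1a2, which was held down, had 4 mice and 3 pools at that level and entered the test through the mice.

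The summed levels of several other cell types' markers were higher in some of the pools. Of the 14 markers of recruited monocytes and macrophages, 11 were tested. EdgeR called 2 higher, Mmp12 and Cd68 (0.103% of all genes tested were), and DESeq2 called 5 (2.49%). Mmp12 entered the test through the pools. The summed level of the markers was 93.5 to 164 CPM in the mice and 102, 206, 309 and 753 CPM in the pools. Ccr2, a chemokine receptor of inflammatory monocytes, was at 0.543 to 0.640 CPM in the mice and 0.843, 3.26, 5.15 and 7.18 CPM in the pools (adjusted p = 0.0816 by edgeR). Gpnmb, a glycoprotein of lipid-laden macrophages, was not tested, and was at 0 to 0.217 CPM in the mice and 0.421, 0.466, 7.75 and 118 CPM in the pools. Resident Kupffer cell markers summed to 245 to 572 CPM in the mice and 231, 246, 417 and 687 CPM in the pools, and edgeR called 0 of 12, with 2 at an unadjusted p-value under 0.05, and DESeq2 2. Neutrophil markers summed to 2.97 to 10.4 CPM and 22.0, 35.6, 10.7 and 9.94 CPM, and stellate cell and myofibroblast markers to 164 to 277 CPM and 198, 305, 415 and 944 CPM. Sinusoidal endothelial markers summed to 366 to 426 CPM and 266 to 429 CPM, markers of T, B and NK cells to 7.07 to 9.60 and 5.03 to 12.5 CPM, those of cholangiocytes and progenitors to 56.3 to 84.8 and 72.9 to 147 CPM, and erythroid markers to 18.3 to 28.9 and 6.58 to 14.4 CPM. In bulk liver, more cells of a type and more RNA per cell cannot be told apart, and the part of these cells in the changes of Mmp12, Chil3, Cd68, Lilr4b, Cd93, F13a1 and Vcan was not tested.

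**Figure D2:**
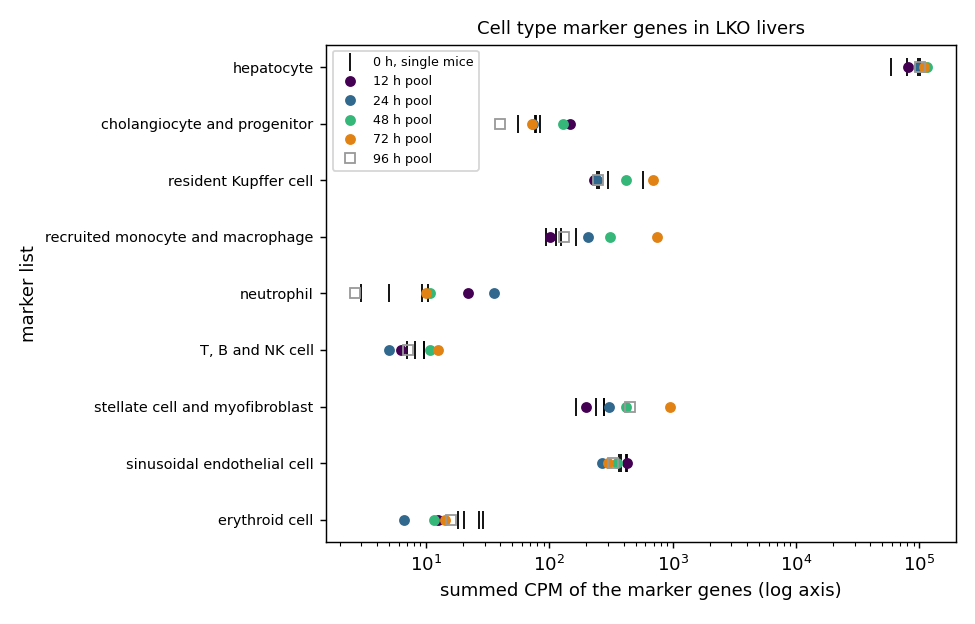
Summed CPM of the marker genes of each cell type (rows, log axis) in LKO livers, with bars for single mice at 0 h, filled points for pools at 12 to 72 h and open squares for the 96 h pool. Markers of recruited monocytes and macrophages reached 753 CPM at 72 h against at most 164 CPM in the mice, while hepatocyte markers stayed within 59380 to 115300 CPM.

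Cd68 and Mmp12 are shown next because their upstream sequence holds TGANTCA, the letters to which AP-1 (Fos and Jun dimers) binds. The window before the start of Cd68, on the minus strand of chromosome 11, has 2 of them, beginning 149 and 24 bases before the start. Capitals mark them together with 3 NF-Y matches (CCAAT) that begin 230, 84 and 60 bases before the start. In Mmp12, on the plus strand of chromosome 9, the letters begin 44 bases before one of the RefSeq starts and are in capitals. That window lies inside the annotated gene (7344381 to 7369499). The other Mmp12 window, from 7344147 to 7344396 at the start of the gene, holds none of the motifs searched.
Cd68, chr11:69666171-69666420, minus strand: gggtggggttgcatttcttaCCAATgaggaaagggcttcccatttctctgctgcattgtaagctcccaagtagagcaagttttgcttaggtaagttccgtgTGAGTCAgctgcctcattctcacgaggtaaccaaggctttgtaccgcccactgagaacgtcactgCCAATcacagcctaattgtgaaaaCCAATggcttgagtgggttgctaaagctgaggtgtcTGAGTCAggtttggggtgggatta
Mmp12, chr9:7347124-7347373, plus strand: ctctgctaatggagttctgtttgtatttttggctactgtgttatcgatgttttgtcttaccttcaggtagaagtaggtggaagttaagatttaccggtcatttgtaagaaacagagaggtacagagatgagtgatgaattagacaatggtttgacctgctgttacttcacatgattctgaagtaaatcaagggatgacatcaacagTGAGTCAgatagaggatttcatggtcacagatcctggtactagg
The AP-1 letters occur in 7.82% of all 27025 genes with a RefSeq promoter and in 5.73% of the 9714 tested genes that have one. Of the genes held up, 11 of 13 had a promoter in the table, and 2 of these, Cd68 and Mmp12, hold the letters, as do 0 of the 7 genes held down that had one. Other letters were at least as frequent among the genes held up, since 3 of the 11 hold STAT matches (27.3%, against 7.53% of tested genes with a promoter) and 7 hold NF-Y matches (63.6% against 40.3%).

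Slc1a2 fell more than any other called gene. It encodes a glutamate transporter that in liver is found in the ring of hepatocytes around the central vein, where glutamine is made. Its level was 125, 94.6, 123 and 97.7 CPM in the mice and 6.32, 1.66, 0.453 and 1.62 CPM in the pools at 12, 24, 48 and 72 h. The mice and the pools were far apart and the 48 h pool was the lowest (log2 fold change −5.46, SE 0.63, adjusted p = 0.0132 by edgeR). The fall was followed by 8.23 CPM at 96 h, still below every mouse.

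The other genes that were held down fell less, by 1.30 to 2.10 on the log2 scale. Npr2, the receptor for C-type natriuretic peptide, was at 61.2, 57.4, 59.6 and 59.1 CPM in the mice and at 22.0, 12.3, 9.68 and 21.7 CPM in the pools (log2 fold change −1.85, SE 0.27, adjusted p = 0.0340 by edgeR). Mapk15, an atypical MAP kinase, was at 18.0, 36.5, 21.2 and 42.2 CPM in the mice and at 7.64, 5.91, 7.08 and 8.99 CPM in the pools (log2 fold change −1.99, SE 0.29, adjusted p = 0.0387 by edgeR). The mice were nearly level for Npr2 and spread widely for Mapk15, without overlap with the pools in either gene. Col5a3 and Col27a1 encode chains of fibrillar collagens. Col5a3 was at 51.1, 63.1, 60.1 and 66.9 CPM in the mice and at 17.4, 19.6, 22.5 and 25.1 CPM in the pools (log2 fold change −1.51, SE 0.18, adjusted p = 0.0132 by edgeR). Col27a1 was at 76.2, 39.8, 72.5 and 53.3 CPM in the mice and at 23.2, 22.9, 24.9 and 19.4 CPM in the pools (log2 fold change −1.42, SE 0.22, adjusted p = 0.0437 by edgeR). Both fell, while the summed level of stellate cell and myofibroblast markers, which include Col1a1, was 164 to 277 CPM in the mice and 198, 305, 415 and 944 CPM in the pools.

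Spry4, an inhibitor of growth factor receptor signalling through MAP kinases, was at 20.1, 33.0, 27.0 and 20.6 CPM in the mice and at 9.99, 10.9, 8.10 and 8.89 CPM in the pools (log2 fold change −1.41, SE 0.21, adjusted p = 0.0401 by edgeR). Syt3, a calcium-binding synaptotagmin of vesicle fusion, was at 7.58, 10.4, 9.01 and 9.29 CPM in the mice and at 2.95, 2.75, 3.34 and 3.95 CPM in the pools (log2 fold change −1.48, SE 0.24, adjusted p = 0.0437 by edgeR). The pools of both genes lay close together and below all mice. Plekhf1, an endosome and lysosome protein with PH and FYVE domains, was at 28.2, 20.6, 19.0 and 24.4 CPM in the mice and at 7.89, 8.19, 9.17 and 12.0 CPM in the pools. Its adjusted p-value of 0.0487 by edgeR was the last inside the threshold (log2 fold change −1.30, SE 0.21), and RLE scaling moved it to 0.0539. Car11, a carbonic anhydrase-related protein without enzyme activity, was named after its values were seen, since its mean was under 5 CPM. It was at 3.48, 3.37, 3.66 and 4.13 CPM in the mice and 0.963, 0.725, 0.566 and 1.14 CPM in the pools (log2 fold change −2.10, SE 0.34, adjusted p = 0.0437 by edgeR). The genes just outside the threshold, all at an adjusted p of 0.0547 by edgeR, were Ccr1, Acp1, Coq10a, Tubb6, Ypel3, Sprr1a, Wdtc1 and Banp.

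Genes were also described by their values alone. Each pool at least 1.5-fold from the 0 h mean and beyond all 4 mice was met by 142 genes that were up (1.12% of those tested) and 122 that were down (0.963%). This description was added after the tested genes were seen to be few, and no test is attached to it. Without the 12 h pool it took in 424 and 323 genes, and without the 72 h pool 255 and 253. All 4 pools lay above all 4 mice for 530 genes (4.18%) and below them for 638 (5.03%). The genes named below were chosen after their values were seen unless they were named above.

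**Figure D3:**
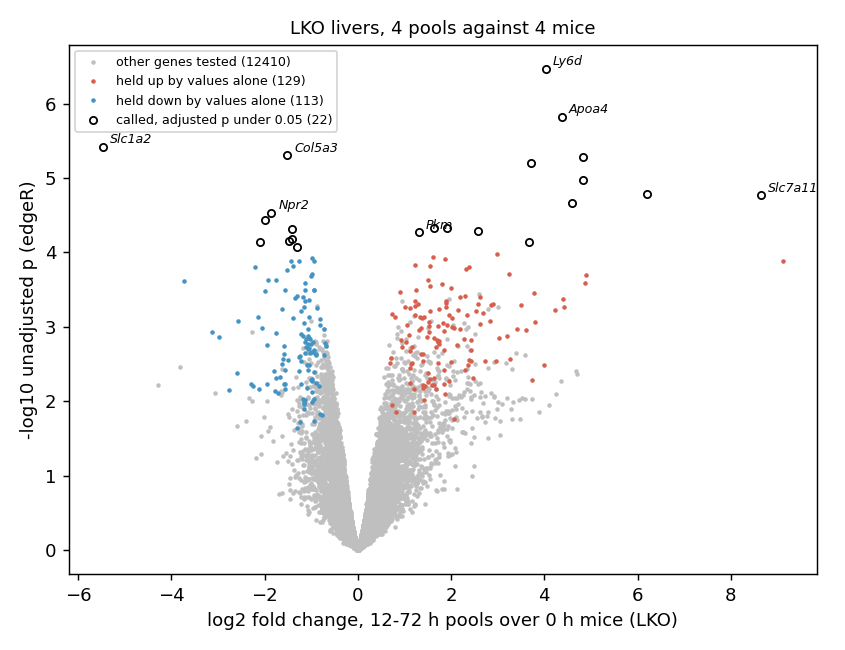
Unadjusted p-value (edgeR, −log10) against the log2 fold change of the 4 pools over the 4 mice for the 12674 genes tested in LKO livers. Open circles are the 22 called genes, and coloured points are genes held by their values alone that were not called, 129 up and 113 down, all of which lie below the called genes.

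The 142 genes that were up did not share 1 time course. Their highest pool was at 12 h for 34 genes, at 24 h for 54, at 48 h for 17 and at 72 h for 37. Their median log2 change from 0 h was 1.39, 1.501, 1.24 and 1.21 at these times. The 122 genes that were down had their lowest pool at 12 h for 41 genes, at 24 h for 48, at 48 h for 25 and at 72 h for 8, with medians of −1.26, −1.41, −1.12 and −0.85. At 96 h the medians were 0.31 and −0.58. Of the genes that were up, 63 were then within the range of the 4 mice, 71 above it and 8 below it. Of the genes that were down, 38 were within it, 81 below it and 3 above it, while over all 12674 genes tested 7200 were within it, 2625 above it and 2849 below it. Among the 22 called genes, 5 of the 13 that were up and 1 of the 9 that were down lay within the range of the mice at 96 h. The 96 h pool is 1 library set against the same mice, so these are values with no test.

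Of the genes held by values alone, 113 of the 142 that were up and 86 of the 122 that were down had a RefSeq promoter. The AP-1 letters TGANTCA occurred in 13.3% of those that were up and 2.33% of those that were down, and the antioxidant response element letters TGACNNNGC, to which NRF2 binds, in 19.5% and 17.4%. STAT letters occurred in 13.3% and 4.65%, and NF-Y letters in 41.6% and 43.0%. For the tested genes with a promoter the shares of these motifs were 5.73%, 14.1%, 7.53% and 40.3%. These shares are a description of short windows on both strands, with no test.

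The gene lists were read by their counts, which differed between the tools. Of all genes tested, edgeR called 0.103% higher and 0.0710% lower and DESeq2 2.49% and 1.57%, and 1.12% were held up and 0.963% down by values alone. At an unadjusted p-value under 0.05 (edgeR), 1066 of 12674 were higher and 841 lower. Of 20 antioxidant genes under the transcription factor NRF2, edgeR called 1 higher, Slc7a11, which entered the test through the pools, and 0 lower. DESeq2 called 8 higher and 0 lower, and the median log2 fold change was 0.80, against 0.04 over all genes tested. Of the 20, 6 were held up by their values alone. Srxn1, which repairs oxidised peroxiredoxins, was at 28.4 to 43.3 CPM in the mice and at 669, 539, 69.3 and 55.9 CPM in the pools (adjusted p = 0.108 by edgeR). Nqo1, a quinone reductase, was at 2.78 to 7.56 CPM and 10.2, 35.1, 8.94 and 12.4 CPM (adjusted p = 0.167 by edgeR). The NADPH-forming enzymes G6pdx and Pgd and the carbonyl reductase Cbr3 were the others. Both genes of glutamate-cysteine ligase, the first enzyme of glutathione synthesis, overlapped between mice and pools. Gclc was at 254 to 411 CPM in the mice and 831, 596, 388 and 299.5 CPM in the pools, and Gclm at 139 to 191 CPM and 147 to 181 CPM.

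Of 19 genes of pericentral hepatocytes, edgeR called 1 lower, Slc1a2, which entered the test through the mice. DESeq2 called 5 lower, Glul and Cyp2e1 included, and neither tool called any higher. The list had a median log2 fold change of −0.52. Their median change from 0 h was −1.06, −1.16, −0.73 and 0.00 at 12, 24, 48 and 72 h and 0.07 at 96 h. Glutamine synthetase, Glul, was at 421 to 527 CPM in the mice and at 208, 115, 67.3 and 217 CPM in the pools (adjusted p = 0.0816 by edgeR). Cyp2e1, the main P450 enzyme that oxidises APAP, was at 4963 to 8403 CPM in the mice and at 3471, 2495, 2210 and 4280 CPM in the pools (adjusted p = 0.108 by edgeR). Both had all pools below all mice, and both were nearer to the mice at 72 h than at 48 h. Of 19 P450 enzymes of drug metabolism edgeR called 0 in either direction, with 6 at an unadjusted p-value under 0.05 and lower and 0 higher, and DESeq2 called 2 lower.

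Growth hormone patterned genes, which differ between male and female liver, had 1 member of 26 called higher by edgeR, Cyp2c69, which entered the test through the pools, and 0 called lower. DESeq2 called 1 higher and 4 lower. The median was −0.75, with 3 members higher and 10 lower at an unadjusted p-value under 0.05 by edgeR. Held down by their values were the male-pattern genes Mup3, Hsd3b5, Cyp4a12a and Slco1a1, and held up were Cyp2c69 and A1bg, which are higher in female liver. Hsd3b5, a steroid reductase, was at 79.4 to 263 CPM in the mice and at 3.97, 25.6, 50.3 and 66.0 CPM in the pools (adjusted p = 0.167 by edgeR). Mup3, which encodes a major urinary protein and has near-identical relatives, was at 9433 to 14480 CPM in the mice and 4032 to 7267 CPM in the pools (adjusted p = 0.0947 by edgeR). The mice themselves spread over a wide range for Hsd3b5.

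Among the other lists, edgeR called Pkm alone of 19 genes in glycolysis and hypoxia and Cd68 alone of 22 in lysosome and phagocytosis, where DESeq2 called 2 higher in each. In the remaining pathway lists edgeR called 0 genes, while DESeq2 called members of some. A list of cytoskeleton genes that also holds annexins, S100 proteins and galectins, which bind calcium, membranes or sugars, had 20 of 31 members at an unadjusted p-value under 0.05 and higher and 0 lower. Of its 22 other members, mostly actins, tubulins and their binding proteins, 13 were higher at that level, with a median of 0.84, and DESeq2 called 6 higher. Of the 9 annexins, S100 proteins and galectins, 7 were, with a median of 1.90, and DESeq2 called 5 higher. Held by their values were Tubb6, Actg1, Tpm4 and the galectin Lgals3. The list was divided after its values were seen. Acute-phase proteins had 13 of 25 members at that level and higher, 0 lower and a median of 0.81, and DESeq2 called 6 higher. The iron-binding protein gene Lcn2 was at 3.14 to 33.4 CPM in the mice and 321, 581, 257 and 39.4 CPM in the pools (adjusted p = 0.0810 by edgeR). Bile acid synthesis had 0 of 16 called by edgeR, with 0 higher and 3 lower at an unadjusted p-value under 0.05, and 0 by DESeq2. Its first enzyme Cyp7a1 was at 35.1 to 106 CPM in the mice and 29.2, 27.3, 171 and 297 CPM in the pools. The cell division lists had different values at different times. Genes of G2/M and mitosis had medians of −0.40, −0.43, 2.37 and 3.27 at 12, 24, 48 and 72 h, and genes of G1/S and DNA replication −0.37, 0.24, 1.31 and 1.74. DESeq2 called 4 of 17 and 8 of 26 of them higher and 0 and 1 lower. Of the G1/S genes, the ribonucleotide reductase subunit Rrm2 was held up by its values, at 2.04 to 12.2 CPM in the mice and 23.7, 17.8, 33.1 and 69.7 CPM in the pools (adjusted p = 0.111 by edgeR).

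**Figure D4:**
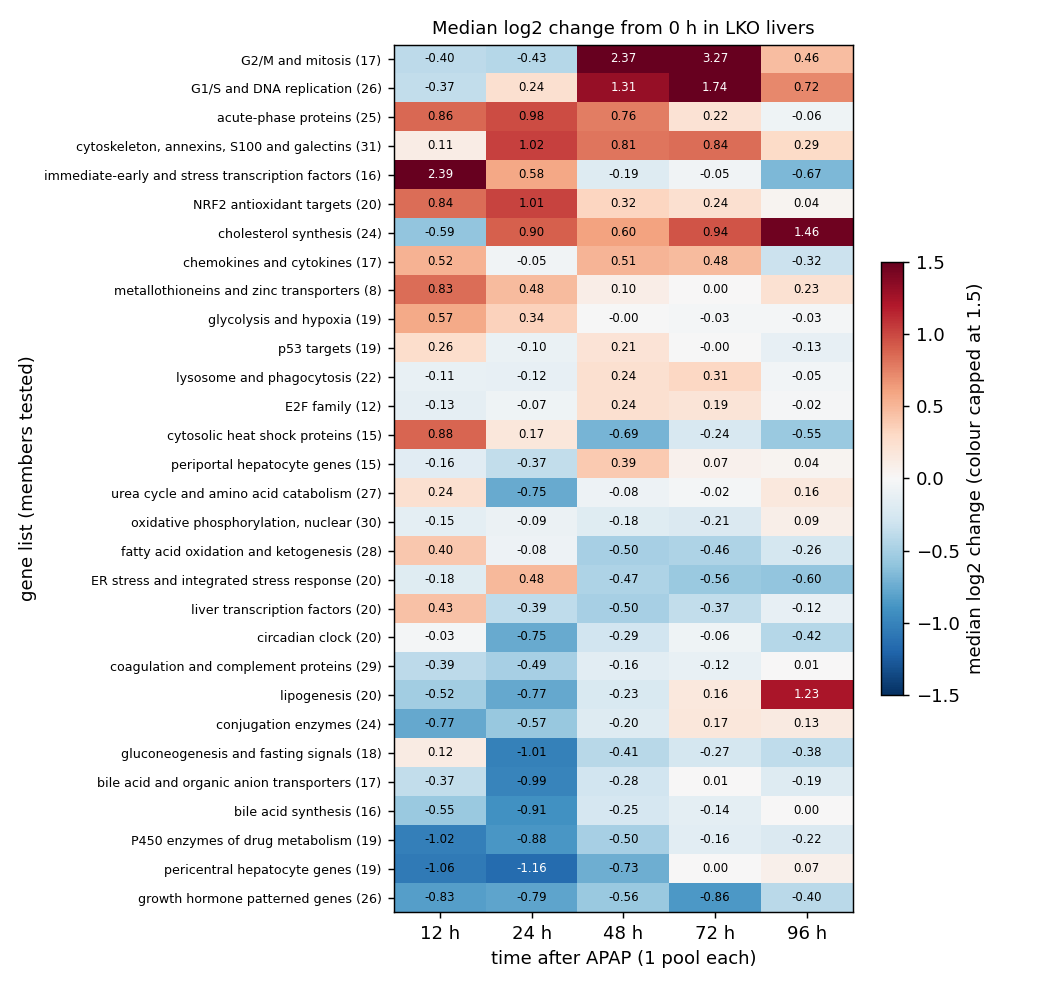
Median log2 change from 0 h of each pathway list (rows, with the number of members tested) in the LKO pools at 12, 24, 48, 72 and 96 h (columns), with the value in each cell and colours capped at 1.5. Lists at the top have the highest average over 12 to 72 h; antioxidant genes are at 0.84 at 12 h and 0.24 at 72 h, and mitosis genes at −0.40 and 3.27.

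The same comparison in control livers, with their own 4 mice and 4 pools, called 1076 genes higher (8.62% of 12481) and 957 lower (7.67%), of which 552 (4.42%) and 507 (4.06%) were held. By values alone, 582 (4.66%) and 529 (4.24%) were held in control. Of the 22 genes held in LKO livers, 19 were held in control livers as well, 12 up and 7 down. These are 86.4% of the LKO list, and 2.17% of the genes held up and 1.38% of those held down in control. The exceptions were Cyp2c69, which was not tested in control, Spry4, which was called but not held, and Col5a3, which was not called (adjusted p = 0.060 by edgeR). Whether a response differs between genotypes was tested in 1 model over 16 libraries, with time as a factor and a term for the genotype difference in the change after APAP.

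In that test, 0 of 13270 genes had a higher change in LKO (0%) and 2 had a lower one (0.0151%), with 1497 at an unadjusted p-value under 0.05. DESeq2 called 48 higher and 107 lower. The 2 genes called by edgeR were Anxa2 and Anxa5, annexins that bind membrane phospholipids in the presence of calcium. Anxa2 was at 8.07, 10.2, 8.90 and 12.8 CPM in LKO mice and 7.40, 86.2, 84.4 and 51.3 CPM in LKO pools at 12, 24, 48 and 72 h. In control livers it was at 11.1, 11.5, 9.69 and 11.6 CPM in the mice and 57.2, 296, 281 and 196 CPM in the pools. The change was smaller in LKO livers by 1.94 on the log2 scale (difference −1.94, SE 0.28, adjusted p = 0.0294 by edgeR), and the LKO pool at 12 h lay below all LKO mice. Anxa5 was at 91.4, 103, 105 and 120 CPM in LKO mice and 97.9, 128, 139 and 127 CPM in LKO pools. In control livers it was at 77.6, 66.2, 88.1 and 89.7 CPM in the mice and 232, 265, 306 and 225 CPM in the pools. The control pools were well apart from the control mice, while the 12 h LKO pool lay among the LKO mice (difference −1.45, SE 0.20, adjusted p = 0.0294 by edgeR). Both calls were lost without time as a factor (adjusted p = 0.940 for Anxa2 and 0.139 for Anxa5 by edgeR) and with the 96 h pools added (0.361 and 0.365). They were also lost when LKO mouse 3 or 4, control mouse 1, 2 or 3, or either 48 h pool was left out, with 0 genes called by edgeR and 1149 to 1678 at an unadjusted p-value under 0.05. Without either 12 h pool 1 gene was called, without LKO mouse 1 or 2 or control mouse 4 there were 4, and without either 24 h or either 72 h pool there were 9.

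None of the 22 held genes passed the test of the difference by edgeR. The nearest was Cyp2c69, which in control livers was at 0.590, 3.00, 0.262 and 0.670 CPM in the mice and 0.339, 0, 0.614 and 0.133 CPM in the pools. It was thus low in every control pool while the LKO pools were at 9.17 to 15.1 CPM (difference 5.88, SE 1.00, adjusted p = 0.0720 by edgeR). Slc1a2 fell in both genotypes, and the control pools were at 2.30, 0, 0.205 and 0.333 CPM after 104.5 to 140 CPM in the control mice (difference 2.21, SE 0.46, adjusted p = 0.132 by edgeR). Apoa4 reached 2781, 8189, 15810 and 6193 CPM in the control pools after 77.1 to 125 CPM in the control mice (difference −1.85, SE 0.59, adjusted p = 0.287 by edgeR). The 12 h pools of both genotypes were alike for Apoa4, and the later control pools were the higher ones. Ly6d was at 12.3, 69.4, 85.5 and 130 CPM in the control pools after 0.0873 to 0.974 CPM in the control mice (difference −2.67, SE 0.76, adjusted p = 0.225 by edgeR).

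**Figure D5:**
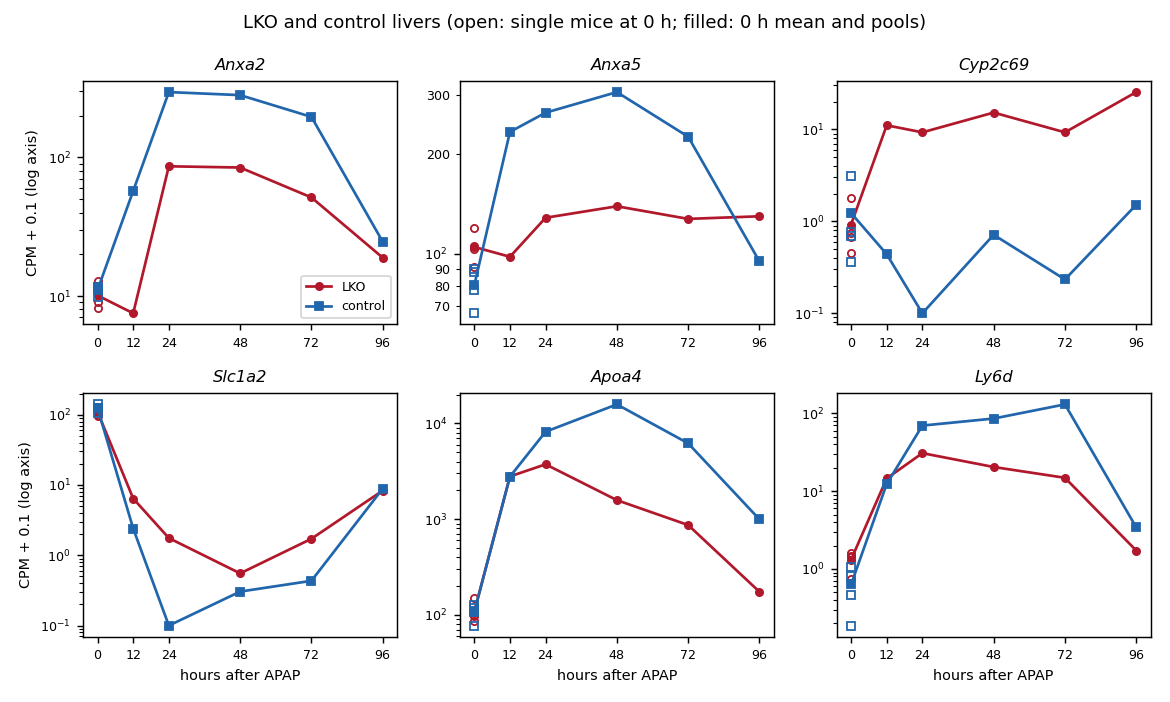
CPM plus 0.1 (log axis) against hours after APAP for 6 genes in LKO (red circles) and control livers (blue squares), with open symbols for single mice at 0 h and filled symbols for the 0 h mean and the pools. Anxa2 reaches 86.2 CPM in LKO and 296 CPM in control at 24 h, and Cyp2c69 lies above 9 CPM in the LKO pools and below 1 CPM in the control pools at 12 to 72 h.

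Over the genes held by their values in LKO livers, the medians of the same genes in control livers were 1.51, 1.495, 2.02 and 1.82 at 12, 24, 48 and 72 h for those that were up. For those that were down they were −1.26, −1.45, −1.61 and −1.27. The genes were chosen in LKO livers, so these values are a description, and the larger values of control at 48 and 72 h were not tested over the list.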

How the data were processed

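Liver RNA was sequenced from single mice at 0 h and from pools of 3 mice at later times. Trimmomatic and STAR (genome build mm10) were used by the authors, who deposited raw, not normalized, counts for 24411 genes; the annotation version is not given in the sources used here. The deposited count column that disregards strand was used, so overlapping antisense genes cannot be told apart, and STAR's summary lines were dropped (no feature 7.295% to 13.6% over the 18 libraries of the LKO cohort). In R 4.3.3, TMM factors were taken over those 18 libraries, genes were kept by filterByExpr, and edgeR 4.0.16 fitted quasi-likelihood models on 8 libraries (LKO) or 16 (genotype difference), with Benjamini-Hochberg adjustment and 2-sided p-values. DESeq2 1.42.0, other scalings, filters and sample choices were alternatives. The scripts were tested on simulated data without change between the pool times. There DESeq2 found more of the changed genes than edgeR but made more false calls. Named genes were the 15 held genes of each direction with the largest change and a mean of at least 5 CPM in the higher group, up to 8 called genes of the genotype difference, and up to 4 called members of each list. Members and lists were chosen with earlier results of these data known. Coordinates are from GENCODE vM21 (GRCm38), promoters from RefSeq (GRCm38.p6). The p-values measure the spread between these libraries, and the pools at 4 times are not replicates of a time.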

Additional observations from a re-analysis of the deposited data

Results flagged for a closer look

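Of 48 groups of 4 mice at 0 h that were checked for a sample far from the others, 4 had one, where chance gives about 1 in 20. Slc7a11 was at 0.0552 CPM in LKO mouse 2 and at 0 in the other LKO mice, and at 0.0609 CPM in control mouse 4 and at 0 in the other control mice, which in each case is 1 read. Cyp2c69 was at 3.00 CPM in control mouse 2 against 0.262 to 0.670 CPM in the other control mice. Pkm was at 13.96 CPM in control mouse 3 against 17.5 to 17.8 CPM in the others.

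The change after APAP differed between LKO and control livers for Anxa5, by −1.45 on the log2 scale, and for Anxa2, by −1.94 (adjusted p = 0.0294 for both by edgeR's quasi-likelihood test). Neither passed without time as a factor (0.940 for Anxa2, 0.139 for Anxa5) or with the 96 h pools added (0.361 and 0.365). In both genes all 4 control pools lay above all 4 control mice. In LKO livers the 12 h pool lay within the range of the mice for Anxa5 and below it for Anxa2.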

How the results depend on the processing

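Of the counts of genes called higher and lower (13 and 9), DESeq2 gave 315 and 199, scaling by library size alone gave 4 lower, no filter beyond 1 count 21 and 14, at least 10 counts in every library 2 and 1, and a stranded column 7 and 3. With the 96 h pool added 0 and 0 were called by edgeR, and 1758 genes had an unadjusted p under 0.05. Genes held up and down had the same counts as the calls under these settings, except by DESeq2, with 132 and 104. Leaving out 1 library gave 1 to 324 called higher, 0 to 211 called lower, 1 to 262 held up and 0 to 167 held down. Genes held by values alone (142 and 122) were 43 and 57 with the 96 h pool, 47 and 28 at 2-fold in every pool, 530 and 638 with no fold limit, and 153 to 424 and 126 to 323 without 1 library. For the genotype difference (2 genes), DESeq2 gave 155, no filter beyond 1 count 7, a stranded column 4, no time factor 0 by edgeR (628 at an unadjusted p under 0.05), the 96 h pools added 0 (1284), and leaving out 1 library 0 to 9. The cause of these shifts was not tested, except that a filter changes which genes are tested and a stranded column holds fewer reads. In the 12 h LKO pool the stranded columns held 8392967 and 8329864 reads on genes, against 16389062 in the column used. No fold change of the 22 genes or of Anxa2 and Anxa5 was reversed. The replicate number of the 0 h mice as a block, with time, gave 3 genes, and Anxa2 was then at an adjusted p of 0.0692 by edgeR. The numbers do not pair the mice, since same-numbered LKO and control mice had correlations of −0.42, −0.21, 0.14 and 0.26 and no LKO mouse correlated best with its own number; for the LKO comparison no paired analysis was possible because the pools carry no replicate number of their own. Library size alone shifted the median log2 fold change of all genes by 0.062. Depth limits genes near 0.143 to 0.209 CPM.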
